A study of Mus musculus with 9 samples.

Results

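Potassium channels of regulatory T (Treg) cells were examined in 8 microarray probe sets annotated to 6 genes, of 41345 probe sets and 22180 named genes in all. The genes are Kcnma1, Kcnmb1, Kcnmb2 and Kcnmb4, which encode the pore and 3 auxiliary subunits of the BK channel, and Kcnn4 and Kcna3, the 2 main potassium channels of T cells. Every probe set whose only annotated symbol was one of these was taken. Kcnma1 and Kcnmb4 had 2 probe sets each and the other genes had 1, and 1 further probe set that lists Kcnmb4 together with its antisense transcript was left out. The genes were chosen by their known place among BK and T cell potassium channels and with the measured difference between the genotypes already known, in particular that of Kcnmb4. The differences of these genes are therefore a description, and no p-value is given for them.

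RNA was measured in 9 samples of sorted C57BL/6 Treg cells, 4 Mst1/Mst2-null and 5 wild type, with 1 array each. The null cells came from Foxp3YFP-Cre donors with loxP-flanked Stk4 and Stk3, the genes of the Hippo kinases Mst1 and Mst2, and the wild-type cells from donors that carried Foxp3YFP-Cre alone. Cre was made from the Foxp3 locus, so deletion was directed to cells that had expressed Foxp3. Both groups were CD4+YFP+CD45.2+ cells from RAG1-/- recipients, which make no T or B cells of their own, 2 months after transplantation of donor marrow mixed at 1 to 1 with wild-type CD45.1 marrow. The ages of the animals are not given in the labels, and these do not say whether each sample came from a separate chimera.

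Potassium channels let potassium leave the cell, which keeps the membrane potential negative and so sustains the entry of calcium after the antigen receptor is engaged. In T cells this role falls mainly to the voltage-gated channel Kv1.3, encoded by Kcna3, and the calcium-activated channel KCa3.1, encoded by Kcnn4. The BK channel opens on both voltage and calcium and is best known from smooth muscle and neurons. Its beta subunits change its gating: beta 1 (Kcnmb1) is the smooth muscle form, beta 2 (Kcnmb2) makes the channel inactivate, and beta 4 (Kcnmb4) is the main form in brain.

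The sequences at the start of the 2 genes whose levels lay apart between the genotypes, Kcnmb4 and Kcna3, are shown with that of Kcnn4, whose levels did not. Each runs from 250 bases before to 50 bases after the RefSeq start on the GRCm38.p6 build, 5′ to 3′ on the gene's own strand, with every CG pair in capitals. The Kcnmb4 window is chr10:116473474-116473773 on the minus strand, the Kcna3 window chr3:107035912-107036211 on the plus strand and the Kcnn4 window chr7:24370013-24370312 on the plus strand.
Kcnmb4: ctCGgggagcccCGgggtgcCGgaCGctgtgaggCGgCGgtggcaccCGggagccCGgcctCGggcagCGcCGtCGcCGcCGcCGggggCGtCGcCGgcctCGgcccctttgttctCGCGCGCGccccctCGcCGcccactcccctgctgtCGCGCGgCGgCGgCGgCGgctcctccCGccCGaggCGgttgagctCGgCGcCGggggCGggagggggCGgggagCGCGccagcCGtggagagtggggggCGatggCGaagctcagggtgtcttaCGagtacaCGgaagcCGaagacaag
Kcna3: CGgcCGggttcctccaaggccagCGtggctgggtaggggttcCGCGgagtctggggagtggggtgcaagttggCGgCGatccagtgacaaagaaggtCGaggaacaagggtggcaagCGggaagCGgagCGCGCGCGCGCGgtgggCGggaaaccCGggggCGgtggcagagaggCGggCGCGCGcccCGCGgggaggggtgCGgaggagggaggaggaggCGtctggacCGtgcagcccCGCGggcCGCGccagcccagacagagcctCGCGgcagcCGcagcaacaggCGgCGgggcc
Kcnn4: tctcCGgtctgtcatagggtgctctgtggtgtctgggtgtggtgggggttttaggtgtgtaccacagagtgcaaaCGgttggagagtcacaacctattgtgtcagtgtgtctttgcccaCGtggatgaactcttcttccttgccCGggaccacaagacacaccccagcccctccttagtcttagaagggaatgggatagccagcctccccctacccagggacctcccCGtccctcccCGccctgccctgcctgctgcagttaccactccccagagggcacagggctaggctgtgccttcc
The Kcnmb4 window held 48 CG pairs at 79% G and C, the Kcna3 window 37 at 75% and the Kcnn4 window 6 at 59.7%, where the median over 32851 mouse promoter windows of the same length was 52.7% G and C. The window of Kcnma1 was also rich in G and C (78%), and those of Kcnmb1 (49.7%) and Kcnmb2 (47.7%) were not. The windows were searched on both strands for TTCNNNGAA, the palindromic STAT motif, for GGAATG, the core of the TEAD motif, and for TGTTTAC, a forkhead motif. In the 6 windows there was 1 match to the STAT letters, in Kcnmb2, and 1 to the TEAD letters, in Kcnn4, and no match to the forkhead letters. Of all promoter windows 8.3% held the STAT letters, 14.7% the TEAD letters and 3.65% the forkhead letters. A match describes letters only, and no motif was found in the Kcnmb4 or the Kcna3 window.

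Values are log2 RMA values as deposited. Differences subtract the wild-type mean from the null mean, in a limma fit of the whole table. Of the 8 probe sets, 1 was called higher and 1 lower in null cells at an adjusted p of 0.05, against 1.28% of all probe sets called in either direction, 0.404% higher and 0.876% lower. In the same 2 probe sets, those of Kcnmb4 (brighter) and Kcna3, the groups did not overlap, against 5.39% of all probe sets (null higher in 1.99% and lower in 3.4%). Because the genes were chosen with this contrast known, nothing is read from these counts. In the other 6 probe sets the groups overlapped.

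**Figure D1:**
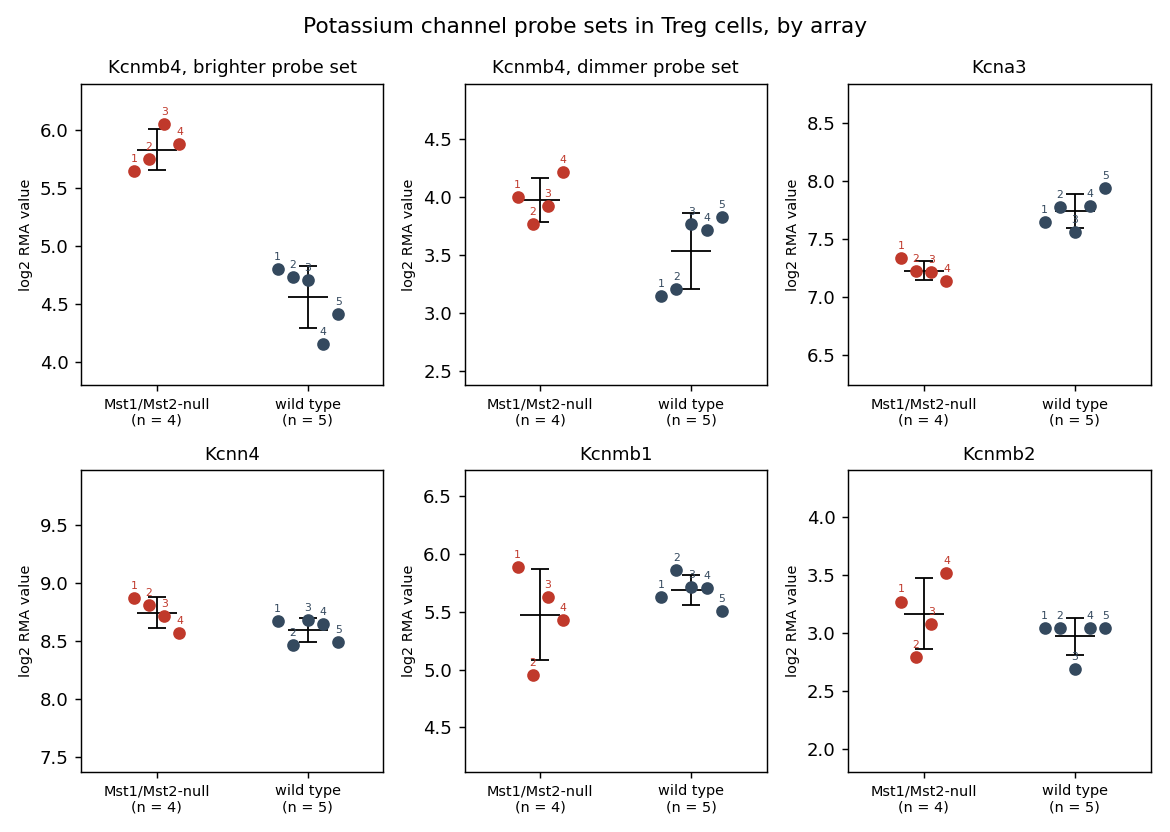
Log2 RMA values of 6 probe sets, with 1 point per array (numbered by replicate), null on the left and wild type on the right. Bars show mean and SD, and each panel spans the same number of log2 units around its own centre. The groups lie apart for the brighter Kcnmb4 probe set (null from 5.64 to 6.05, wild type from 4.15 to 4.80) and for Kcna3 (null from 7.14 to 7.33, wild type from 7.56 to 7.94), and overlap in the other panels.

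Kcnmb4, the beta 4 subunit, was the member called higher in null cells. Its brighter probe set read 5.64, 5.75, 6.05 and 5.88 in the null arrays, against 4.80, 4.73, 4.70, 4.15 and 4.41 in the wild-type arrays. Every null array lay above every wild-type array, with a gap wider than the range within either group. The means were 5.83 ± 0.17 (SD, n = 4) in null and 4.56 ± 0.27 (SD, n = 5) in wild type, a difference of 1.27 ± 0.15 (SE, 95% interval from 0.94 to 1.60), or 2.41-fold. All 9 values exceeded the median of the whole table, 4.04. The 95th percentile of 1091 olfactory receptor probe sets, known from the olfactory epithelium, lay between 4.22 and 4.31 in null arrays and between 4.10 and 4.33 in wild-type arrays, and wild-type array 4 was the 1 array in which Kcnmb4 fell below it. In bulk samples such as these, more cells with a transcript and more transcript per cell cannot be told apart.

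The dimmer Kcnmb4 probe set differed less. It read 4.00, 3.77, 3.92 and 4.21 in the null arrays, against 3.14, 3.21, 3.77, 3.71 and 3.83 in the wild-type arrays. The groups overlapped between 3.77 and 3.83, and 8 of the 9 values lay below the median of the table. The difference was 0.44 ± 0.17 (SE, 95% interval from 0.059 to 0.83), was not called, and its size is not exact at this level. The identifiers of probe sets around it belong to genes on the plus strand (10 of the 10 nearest with a known strand), and those around the brighter probe set to genes on the minus strand (10 of 10), the strand of Kcnmb4. The sources do not state which strand each probe set reads, and antisense transcripts are annotated at this locus, so what the dimmer probe set measures is uncertain.

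The genes beside Kcnmb4 on chromosome 10 were read in the same fit. The 5 nearest on either side in RefSeq order were taken, among genes that had a probe set with 1 symbol. Of these, 0 were called by limma, against 1.28% of all probe sets. An unadjusted p under 0.05 was reached by 1, Rab3ip, against 12.8% of all probe sets. Rab3ip, which encodes an activator of Rab GTPases, lay 4 places from Kcnmb4 and read from 7.58 to 8.25 in the null arrays, against 6.99 to 7.47 in the wild-type arrays. Its groups did not overlap, as in 5.39% of all probe sets (difference 0.69 ± 0.15 (SE), limma adjusted p = 0.0742). Rab3ip was called when only the 23521 probe sets with 1 symbol were fitted, when each gene was fitted by 1 probe set, and with the filter on dim probe sets. Cnot2, a subunit of the deadenylase complex and the nearest on one side, differed by 0.12 (limma adjusted p = 0.555), and Ptprb, a receptor phosphatase and the nearest on the other, by 0.061 (0.83).

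**Figure D2:**
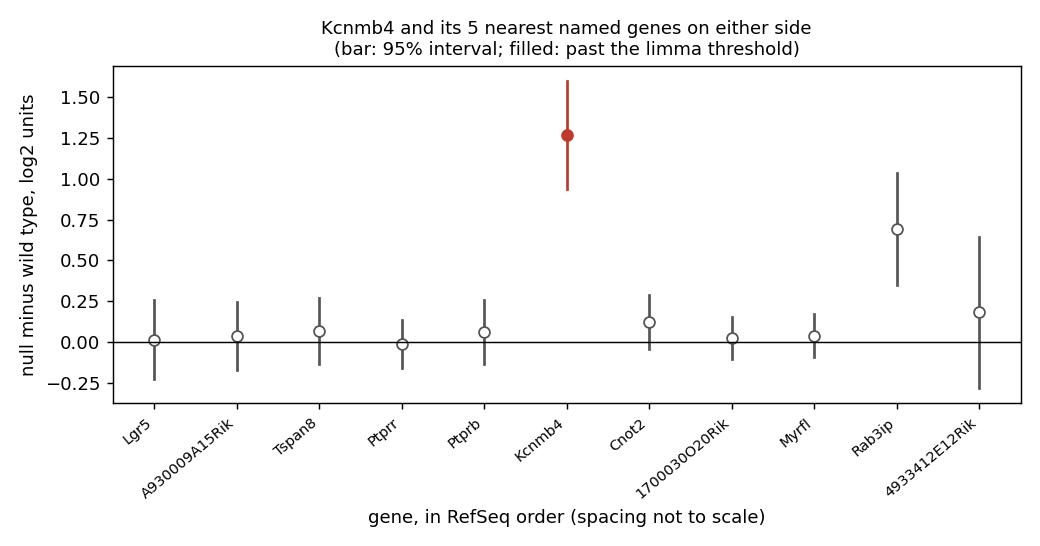
Null minus wild type in log2 units for Kcnmb4 (brighter probe set, red) and its neighbours (grey), in RefSeq order and with spacing not to scale. Neighbours are the 5 nearest genes on either side that had a probe set with 1 symbol. Bars are 95% intervals and filled points passed the limma threshold. Kcnmb4 stands at 1.27 and Rab3ip at 0.69, while the intervals of the other 9 genes include 0.

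The profile most like that of the brighter Kcnmb4 probe set was sought among probe sets with 1 symbol other than Kcnmb4. Predicted, Rik and LOC genes, antigen receptor segments, Xist, Tsix and Y-linked genes were left out. The measure was the root mean square difference between centred log2 values over the 9 arrays. By this measure the nearest were Rpl29, a ribosomal protein gene (0.167 log2 units), the Polycomb group gene Scmh1 (0.211), Zc3hav1l (0.263), the F-box gene Fbxo17 (0.295) and Sfi1, known for its role at centrosomes (0.315). The root mean square of the centred Kcnmb4 profile itself was 0.665. Rpl29 has near-identical processed copies in the genome, so its probe set is uncertain. All 5 genes were higher in null cells without overlap between the groups, a shape that the measure selects.

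Kcna3, the gene of Kv1.3, was lower in null cells. It read 7.33, 7.22, 7.21 and 7.14 in the null arrays, against 7.65, 7.78, 7.56, 7.78 and 7.94 in the wild-type arrays. Every null value lay below every wild-type value, and null cells spanned 0.193 log2 units, against 0.380 in wild type. The means were 7.22 ± 0.080 (SD, n = 4) in null and 7.74 ± 0.14 (SD, n = 5) in wild type, a difference of -0.52 ± 0.085 (SE, 95% interval from -0.71 to -0.32), or 1.43-fold lower. The call of Kcna3 was lost on leaving out null array 3, null array 4, or wild-type array 1, 2 or 4, while the difference then stayed between -0.54 and -0.49.

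Kcnn4, the gene of KCa3.1, did not pass. It read 8.88, 8.81, 8.72 and 8.57 in the null arrays, against 8.67, 8.47, 8.68, 8.65 and 8.50 in the wild-type arrays. The 3 highest values were from null arrays, and null array 4 lay within the wild-type range. The means were 8.74 ± 0.13 (SD, n = 4) and 8.59 ± 0.10 (SD, n = 5), a difference of 0.15 ± 0.083 (SE, 95% interval from -0.039 to 0.34). The interval of Kcnn4 lies above that of Kcna3 without overlap, but the difference between the 2 genes was not tested.

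**Figure D3:**
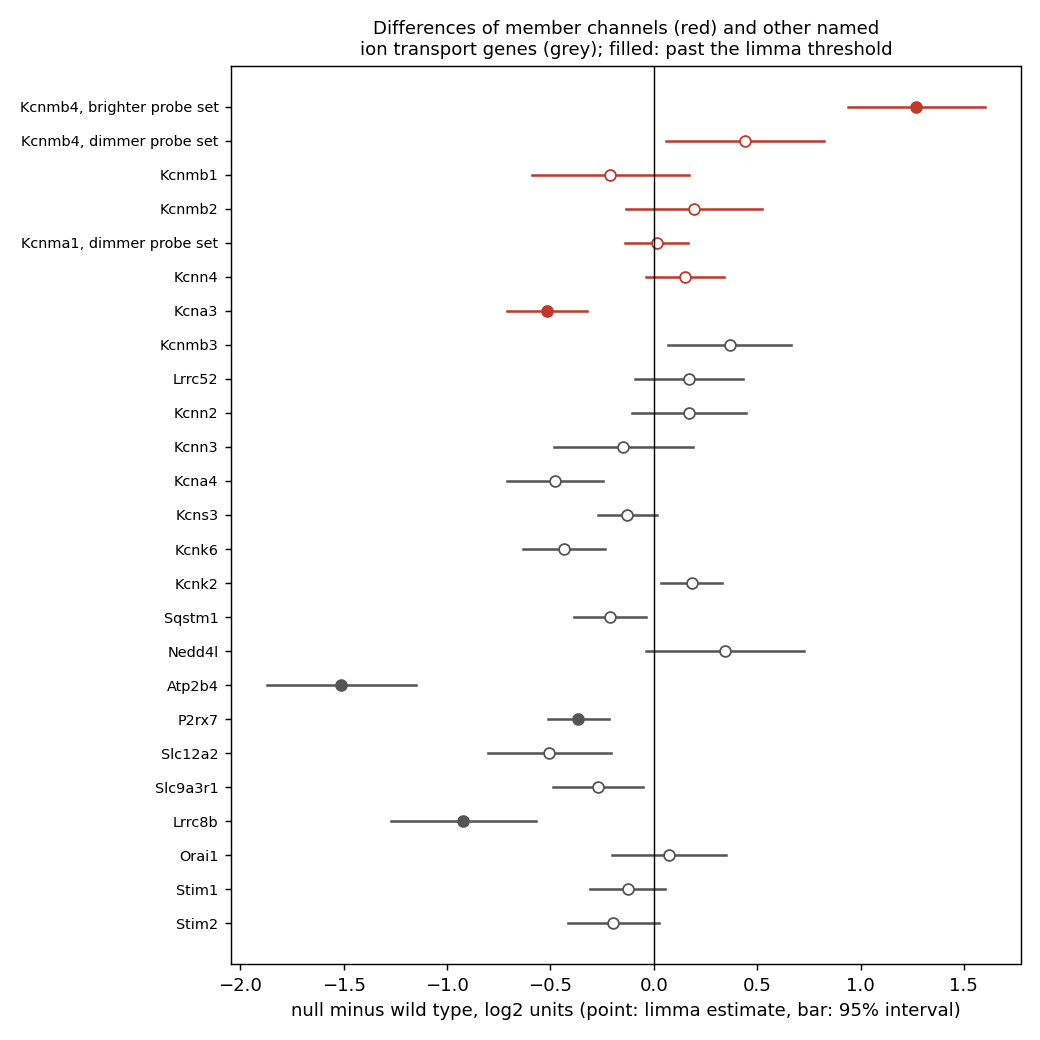
Null minus wild type in log2 units with 95% intervals for the member probe sets (red) and for other ion transport genes named by rule (grey), where filled points passed the limma threshold. The brighter Kcnma1 probe set is left out because its interval, from -2.84 to 6.73, would set the scale. Kcnmb4 (1.27) and Kcna3 (-0.52) are the filled members, and Atp2b4 (-1.51), Lrrc8b (-0.92) and P2rx7 (-0.37) the filled genes outside them.

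The pore gene Kcnma1 gave 2 readings that differed. The dimmer probe set was flat, from 2.63 to 2.85 in null and from 2.60 to 2.80 in wild-type arrays, all below the median of the table (difference 0.014, 95% interval from -0.14 to 0.17). The brighter probe set read 3.48, 3.86, 9.05 and 11.9 in the null arrays, against 3.47, 3.25, 3.25, 10.6 and 5.14 in the wild-type arrays. High values thus stood in null arrays 3 and 4 and in wild-type array 4, a middle value in wild-type array 5, and the other 5 arrays lay below the median of the table. The range of this probe set over the 9 arrays, 8.69 log2 units, was the widest of all 41345 probe sets, whose median range was 0.566. Its probe sequences were not used here, so whether it reads Kcnma1 transcript in these arrays is uncertain. The next widest were those of the heat shock genes Hspa1b (7.16) and Hspa1a (7.13).

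The high and low values of this probe set were found in both genotypes. The means of the brighter Kcnma1 probe set were 7.08 ± 4.11 (SD, n = 4) in null and 5.14 ± 3.14 (SD, n = 5) in wild type, a difference of 1.94 ± 2.12 (SE, 95% interval from -2.84 to 6.73). It was 0.32 without null array 4, 1.29 without null array 3, 3.30 without wild-type array 4, 3.14 without null array 1 and 3.02 without null array 2. Of all other probe sets the nearest in profile was at a root mean square difference of 2.37, where the centred profile of this probe set itself had 3.31. The mean of Hspa1a and Hspa1b was high in 6 arrays, at 10.1, 9.91 and 8.56 in null arrays 2 to 4 and 9.46, 9.89 and 10.2 in wild-type arrays 3 to 5, and at 3.70 in null array 1, 5.94 in wild-type array 1 and 3.06 in wild-type array 2. The 4 arrays with raised values of this probe set were among those 6, whereas null array 2 and wild-type array 3 had high heat shock values and low values of this probe set. The part of heat shock expression in this reading was not tested.

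**Figure D4:**
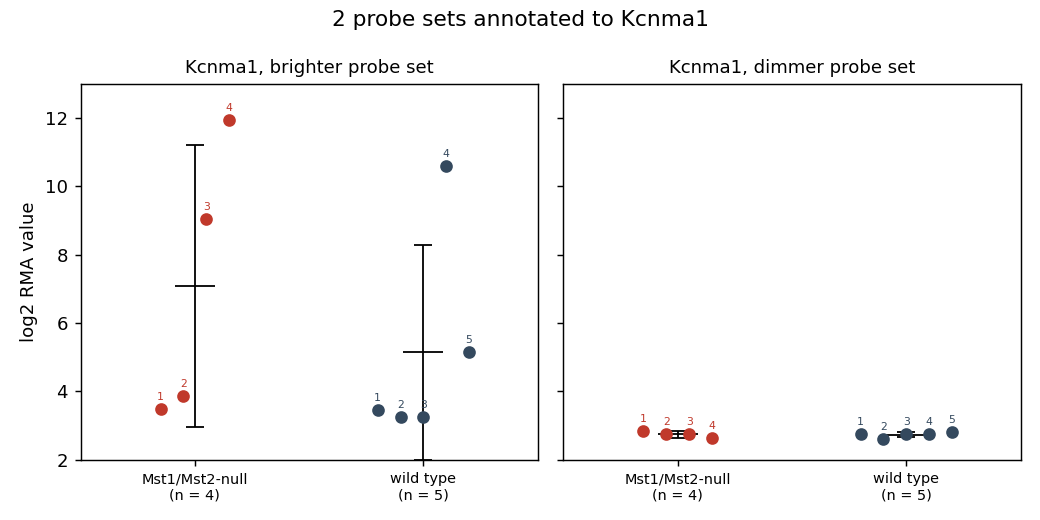
Log2 RMA values of the 2 probe sets annotated to Kcnma1, with 1 point per array (numbered by replicate), null on the left and wild type on the right of each panel, and bars for mean and SD. The brighter probe set spans 3.48 to 11.9 in null and 3.25 to 10.6 in wild-type arrays, and the dimmer one stays between 2.60 and 2.85 in all 9.

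The remaining beta subunits showed no called difference. Kcnmb1 read 5.88, 4.96, 5.63 and 5.42 in the null arrays, against 5.63, 5.86, 5.71, 5.71 and 5.51 in the wild-type arrays, all above the olfactory receptor percentile. Null array 1 was the highest of the 9 and null array 2 the lowest, so the null range (0.925) was wider than that of wild type (0.354) and enclosed it. The Kcnmb1 difference was -0.21 ± 0.17 (SE, 95% interval from -0.59 to 0.17), and it was -0.038 without null array 2 and -0.35 without null array 1. Kcnmb2 read 3.27, 2.80, 3.08 and 3.52 in the null arrays, against 3.05, 3.05, 2.69, 3.05 and 3.05 in the wild-type arrays, all below the median of the table. The values of Kcnmb2 in wild-type arrays 1, 2, 4 and 5 were identical to the last deposited digit, and 26% of all probe sets had the same value on at least 3 arrays (33.7% of those below the median of the table, 18.4% of the others). The Kcnmb2 difference was 0.19 ± 0.15 (SE, 95% interval from -0.14 to 0.52), and it was 0.075 without null array 4, 0.32 without null array 2 and 0.12 without wild-type array 3.

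Markers of smooth muscle and neurons, where BK channels are best known, had no called member (0 of 10 and 0 of 10 by limma, and 2 in each at an unadjusted p under 0.05, which 12.8% of all probe sets reached). Of the smooth muscle markers 5 were below the median of the table in both groups, among them Myh11 (3.65 in null, 3.69 in wild type) and Cnn1 (2.68 in null, 2.78 in wild type), while Acta2 was at 6.41 in null and 6.08 in wild type and Actg2 at 5.22 in null and 6.32 in wild type. The groups lay apart in 1 of the 10, Tagln (5.19 in null, 5.39 in wild type), against 5.39% of all probe sets. The mean log2 value over the smooth muscle markers lay between 4.11 and 4.34 in null and between 4.23 and 4.36 in wild-type arrays. Null array 4, the highest for the brighter Kcnma1 probe set, had the lowest of these means (4.11), and wild-type array 4 the highest (4.36). Of the neuron markers 7 were dim in both groups, Snap25 and Syt1 included, while Syp was at 5.34 in null and 5.32 in wild type. The groups lay apart in 2 of the 10, Map2 (3.77 in null, 4.50 in wild type) and Stmn2 (3.94 in null, 3.73 in wild type), against the same 5.39%.

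The other potassium channel genes were read as a background to the members. Of 88 listed, 82 were measured, and 54 of these lay below the median of the table in both groups. By limma 0 were called higher and 0 lower, and 4 reached an unadjusted p under 0.05, against 12.8% of all probe sets. Their median difference was 0.024, against 0.0023 over the 22180 named genes, of which 1.34% were called. Groups lay apart in 2 of the 82, against 5.39% of all probe sets. Kcna4, which encodes the A-type channel Kv1.4, read from 5.65 to 6.04 in null and from 6.21 to 6.54 in wild-type arrays (difference -0.48 ± 0.10 (SE), limma adjusted p = 0.0678). Kcnk6, a two-pore channel gene, read from 5.29 to 5.57 in null and from 5.72 to 6.01 in wild-type arrays (difference -0.43 ± 0.087 (SE), limma adjusted p = 0.0542). Kcna4 and Kcnk6 were called lower when only probe sets with 1 symbol were fitted, when each gene was fitted by 1 probe set, and with the filter on dim probe sets. Kcnmb3, the beta 3 subunit gene, had a difference of 0.37 with groups that overlapped (limma adjusted p = 0.276). The remaining genes named by rule, Lrrc52, Kcnn2, Kcnn3, Kcns3 and Kcnk2, had differences between -0.15 and 0.18.

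Calcium entry, which the potassium channels sustain, was read in 28 genes of calcium channels, stores and pumps. None was higher and 2 were lower by limma, with 26 not called, against 0.876% of all probe sets called lower. The median difference was -0.12, with 7 differences above 0, against 50.7% of all named genes. An unadjusted p under 0.05 was reached by 8 of the 28, against 12.8% of all probe sets, and the groups lay apart in 4, against 5.39%. This list and the other ion transport lists were chosen with earlier results of these data known, so their counts are a description only. Atp2b4 encodes a plasma membrane pump that exports calcium. It read 6.16, 6.88, 6.81 and 7.05 in the null arrays, against 8.26, 8.30, 8.21, 8.22 and 8.18 in the wild-type arrays, which is 2.85-fold lower in null cells (difference -1.51 ± 0.16 (SE), limma adjusted p = 0.00299). Atp2b4 lost its call with the replicate number as a block. P2rx7, an ATP-gated cation channel, was also lower in null cells (difference -0.37 ± 0.065 (SE), limma adjusted p = 0.0337). P2rx7 lost its call in the quantile-normalised data, with the replicate number as a block, in the 6 arrays where Hspa1a and Hspa1b were high, without null arrays 2 and 4 together, and on leaving out null array 1 or 3 or wild-type array 2, 3, 4 or 5. The store-operated channel gene Orai1 differed by 0.074 (95% interval from -0.20 to 0.35) and the calcium sensors of the store Stim1 by -0.13 (from -0.31 to 0.056) and Stim2 by -0.20 (from -0.41 to 0.023), with groups that overlapped.

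Regulators of KCa3.1 and Kv1.3, a list of 17 of which 11 were measured, had 0 genes called by limma and 1 at an unadjusted p under 0.05 (median difference -0.11). Of all probe sets 1.28% were called in either direction and 12.8% reached an unadjusted p under 0.05. Sqstm1, an autophagy adaptor, differed by -0.21 and the ubiquitin ligase gene Nedd4l by 0.34. The list for the ion gradient, of pumps and transporters, also holds Slc9a3r1, which is neither. Of its 12 measured genes 0 were called, and 2 reached an unadjusted p under 0.05. The first was the sodium, potassium and chloride cotransporter gene Slc12a2 (difference -0.50 ± 0.13 (SE), limma adjusted p = 0.128). The second was Slc9a3r1, a scaffold of membrane transporters, which differed by -0.27 (limma adjusted p = 0.269). Among 18 chloride and volume-regulated channel genes 1 was lower and none higher (median difference -0.061), against 0.876% of all probe sets lower and 0.404% higher. That gene, Lrrc8b, a subunit of the volume-regulated anion channel, averaged 4.47 ± 0.30 (SD, n = 4) in null and 5.39 ± 0.21 (SD, n = 5) in wild type, or 1.89-fold lower (limma adjusted p = 0.0271). Lrrc8b lost its call with the replicate block, in the 6 arrays with high heat shock values, without null arrays 2 and 4 together, and on leaving out null array 3 or 4 or wild-type array 1, 2, 3 or 4.

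Marker genes of cell state also differed between the genotypes. The defining Treg gene Foxp3 averaged 10.7 in both groups, and Il2ra 9.89 in null and 9.83 in wild type, and these were the 2 of 12 measured Treg markers with a difference above 0. Of the 12, 1 was called, Ikzf4, which was lower, against 0.876% of all probe sets called lower. An unadjusted p under 0.05 was reached by 9 of the 12, against 12.8% of all probe sets. In 6 the groups did not overlap, all 6 with null lower, against 3.4% of all probe sets. Lrrc32, which displays latent TGF-beta on Treg cells, averaged 7.08 in null and 8.14 in wild type, Ikzf2, the gene of Helios, 9.31 in null and 10.03 in wild type, and the T cell receptor gene Cd3e 10.77 in null and 11.08 in wild type. These 3 were not called, and their groups did not overlap. The mean log2 level of the Treg markers lay between 9.15 and 9.41 in null and between 9.63 and 9.67 in wild-type arrays (median difference -0.29). Of 14 measured effector Treg genes 7 were lower and 0 higher, against 0.876% of all probe sets lower, with a median difference of -1.24 and a mean log2 level between 5.80 and 6.58 in null and between 7.50 and 8.07 in wild-type arrays. Of 10 measured genes of resting T cells 2 were higher and 0 lower (median 0.59), against 0.404% of all probe sets higher, with mean log2 levels between 7.65 and 7.93 in null and between 6.93 and 7.22 in wild-type arrays. The marker lists were chosen with earlier results of these data known, so their counts are a description only. The part of these marker differences in the levels of Kcnmb4 and Kcna3 was not tested.

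No marker of another blood cell type was called, in 9 B cell, 12 myeloid, 8 CD8 T and NK cell and 4 erythroid markers (1, 4, 1 and 0 at an unadjusted p under 0.05, which 12.8% of all probe sets reached). The difference was above 0 in 9 of the 9 B cell, 10 of the 12 myeloid, 7 of the 8 CD8 T and NK cell and 2 of the 4 erythroid markers. Of all named genes 50.7% had a difference above 0. Markers of 1 cell type can move together between arrays, so these signs are not independent. Mean log2 levels of B cell markers lay between 4.46 and 5.20 in null and between 4.24 and 4.97 in wild-type arrays, those of myeloid markers between 4.49 and 5.69 in null and between 4.46 and 5.10 in wild-type arrays, and both were highest in null array 4. The part of such cells in the results was not tested, and erythroid cells, which use KCa3.1, were read by 4 of 10 listed markers only. Stk4, the targeted gene of Mst1, read 7.55, 7.83, 7.50 and 7.69 in the null arrays, against 7.84, 7.88, 8.09, 7.88 and 7.88 in the wild-type arrays. This small difference (-0.27) does not check the deletion, since the exons that Cre removes are not given, and no probe set was named for Stk3. Null arrays correlated less with their own group (mean r from 0.968 to 0.975) than wild-type arrays (0.984 to 0.986).

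**Figure D5:**
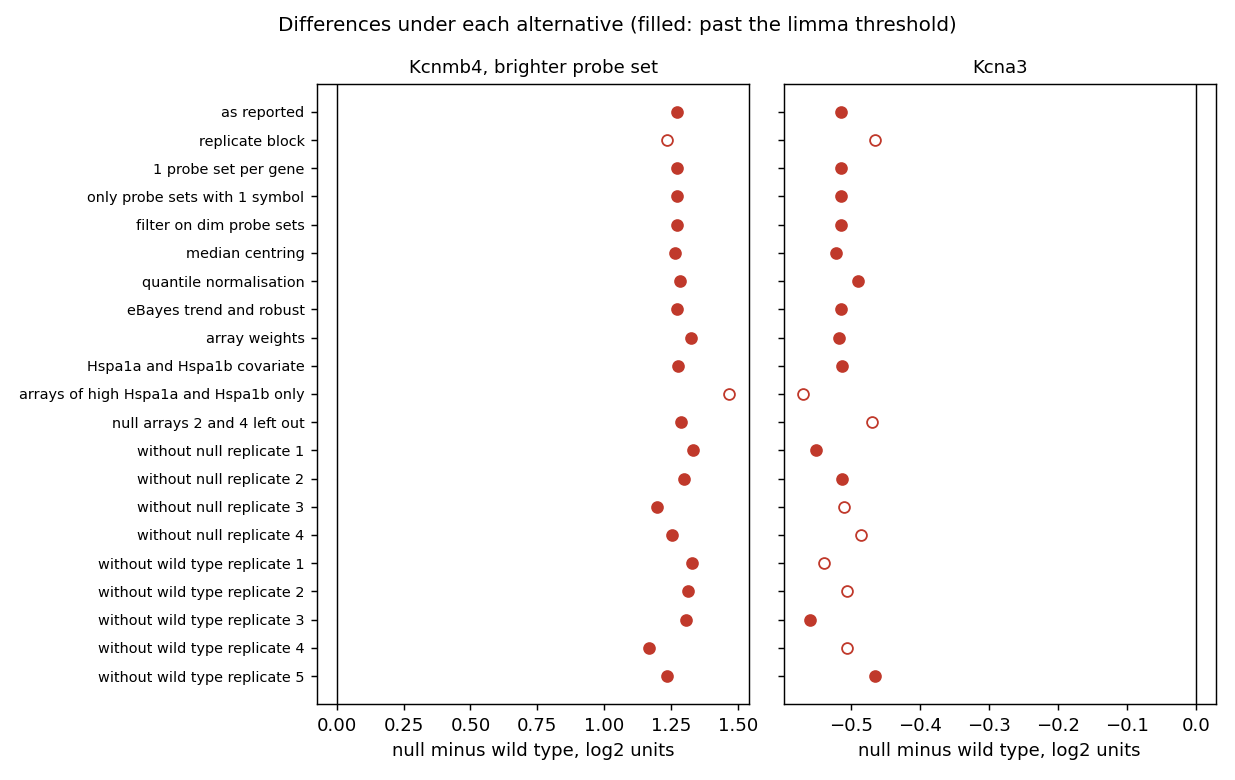
Null minus wild type in log2 units for the brighter Kcnmb4 probe set (left) and Kcna3 (right) as reported and under each of 20 alternative settings, where filled points passed the limma threshold. Kcnmb4 stays between 1.17 and 1.47 and was called in 18 of 20 settings, and Kcna3 stays between -0.57 and -0.47 and was called in 12 of 20. Both genes were chosen with this contrast known and the settings reuse the same arrays, so the calls are a description.

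Across 20 alternative settings the brighter Kcnmb4 probe set kept a difference between 1.17 and 1.47. It was called in each of the 9 fits that left out 1 array, and not called with the replicate number as a block or within the 6 arrays where Hspa1a and Hspa1b were high. Kcna3 kept a difference between -0.57 and -0.47. It was not called in those 2 settings either, nor with null arrays 2 and 4 left out together. The genes were chosen with this contrast known, and the settings reuse the same arrays. The calls under these settings therefore describe the processing only and add no support to the differences.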

How the data were processed

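RNA was amplified and labelled from 1 to 20 ng, per the labels' protocols, with NuGEN kits. The authors deposited log2 values, and the submitters' processing notes name RMA and Affymetrix Expression Console 1.1. RMA includes background correction and quantile normalisation, so low signal and background cannot be separated. Genes were named from the platform annotation: 23521 probe sets had 1 symbol, 1814 several and 16010 none listed.

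The 4 null and 5 wild-type arrays were compared with limma 3.58.1 in R 4.3.3 (lmFit, eBayes, two-sided, Benjamini-Hochberg over all 41345 probe sets, threshold 0.05). The fit was run on simulated data with independent noise in each probe set and no effects shared within an array. That run cannot show how the calls here depend on such effects. Tables were plotted in Python 3.11.15 with matplotlib 3.10.9. Of 273 listed genes 240 were measured, each counted by its probe set with the highest mean. Named outside the members were Orai1, Stim1, Stim2, up to 4 called genes of each list with the smallest p (2 if none, except marker lists), neighbours and like profiles, without predicted genes in the last. Markers given as levels, Hspa1a and Hspa1b were chosen after their values were seen. Members and lists were chosen with earlier results of these data known. The number of arrays limits the precision, and p-values reflect only the spread of these samples, which may be technical. Promoter sequences are RefSeq's (GRCm38.p6), matched for 6 of 6 genes. Alternatives were a replicate block, other probe sets, filters, scalings, weights, a heat shock covariate or subset, and arrays left out.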

Additional observations from a re-analysis of the deposited data

Results flagged for a closer look

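Of 16 groups of member values (8 probe sets in each genotype), 2 had a lone array by Dixon's gap test, which chance gives in about 1 of 20 groups. The brighter Kcnma1 probe set was flagged for wild-type array 4, whose gap to the next array made up 0.742 of the group's range. Kcnmb2 was flagged for wild-type array 3 (a share of 1), since the other 4 wild-type values were identical.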

How the results depend on the processing

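The count of called probe sets (529) was 16 with the replicate block, 56 within the 6 arrays where Hspa1a and Hspa1b were high, and between 255 and 631 on leaving out 1 array (288 and 327 without null arrays 1 and 3, and 295, 262, 285, 255 and 285 without wild-type arrays 1 to 5). With null arrays 2 and 4 left out, an alternative chosen after seeing the data, it was 731, and with the dim filter 730. Hspa1a and Hspa1b, which define the 6 arrays and the heat shock covariate, were also chosen after their values were seen. Member probe sets called (2) fell to 0 with the replicate block and in the 6 arrays, to 1 without null arrays 2 and 4, and were between 1 and 2 on leaving out 1 array. Genes called in the ion transport lists (3) numbered 0 with the replicate block, 1 in the 6 arrays and without null arrays 2 and 4, 5 with 1 probe set per gene, with 1-symbol probe sets only and with the dim filter, and between 1 and 4 on leaving out 1 array. Neighbours of Kcnmb4 called (0) numbered 1 with 1 probe set per gene, with 1-symbol probe sets only and with the dim filter, and 0 on leaving out any 1 array. The cause of these changes was not tested. The labels do not say that replicate numbers pair samples, and same-numbered samples did not deviate together (correlations from -0.138 to 0.027), so the replicate block is no paired analysis of known pairs. Of the other values, the Kcnmb1 difference moved to 0.072 without null arrays 2 and 4. Both dim levels left 5 member probe sets above them in both group means. Among them was the brighter Kcnma1 probe set, which exceeded the median of the table in only 2 of 4 null and 2 of 5 wild-type arrays. Signal near background limits Kcnmb2, the dimmer Kcnmb4 and the dimmer Kcnma1 probe sets.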
